A study of Mus musculus with 6 samples.

Results

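The genes described here are 54 genes of mitosis, the division of the chromosomes and then of the cell. They were listed by name for their roles at the kinetochore and centromere, in the spindle checkpoint, as mitotic cyclins and kinases, in the spindle and its motors, in cytokinesis and in chromosome structure. This list and the further lists below were made with earlier results of these data known. A gene was counted as measured where a row of the expression table is paired with its symbol alone. This held for 52 of the 54, out of 22180 named genes on the arrays. Ccnb1, the cyclin B1 gene, and Ncapg, a condensin subunit gene, had 0 such rows and are not analysed here. Bod1 had more than 1 row, and its brighter row was used.

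RNA was taken from cultured heart muscle cells of 1-day-old C57BL/6 mice, held at 2% oxygen, 93% nitrogen and 5% carbon dioxide for 12 h. The circulating growth factor FGF21 was present at 1 µg/ml in 3 samples and absent from 3 control samples, with 1 array each, to find the genes it regulates. The controls were hypoxic too, so hypoxia itself was not compared. Cardiomyocytes were enriched by seeding the cell suspension and carrying over what had not attached after an hour, a step that does not remove every other heart cell. The labels call the samples biological replicates without naming separate litters or cultures, so each p-value covers only the spread among these arrays, part of which may be technical. Values are log2 signals, on which a difference of 1 is a doubling.

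In mitosis, the kinetochore is the protein platform that joins each centromere to spindle microtubules. The checkpoint holds back anaphase until all kinetochores are attached, and cyclin-dependent kinase 1 with its cyclins drives entry. Cytokinesis then follows, when the central spindle and a contractile ring split the cell. Most genes of this machinery are transcribed late in the cell cycle and are kept off in resting cells by the DREAM complex, which binds a promoter element called the CHR (cell cycle genes homology region). MuvB with B-MYB and FOXM1 switch them on, and NF-Y acts through CCAAT boxes in many of the same promoters. Heart muscle cells of newborn mice are known to lose the ability to divide within days of birth, while fibroblasts, endothelial cells and other cells of such cultures go on dividing.

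The 8 windows that follow show these promoter elements in members whose values are given below. Each is the 140 bases before the RefSeq start (GRCm38.p6), 5′ to 3′ on the gene's strand, outside the transcribed part. Capitals mark matches to a CHR, searched as the letters TTTGAA and in its second form as the letters TTTAAA, or to a CCAAT box. Both strands were searched, so a match on the other strand is printed as the reverse complement, which begins with TTC for the first CHR form and with ATT for the box. The second CHR form reads the same on both strands, and the CHR and CCAAT words share no bases in any window printed here. Kif15, Cenpn and Plk4 were among the members with the smallest p, Cdk1 and Top2a are standard proliferation genes, Cdc20 was the 1 member with a difference below 0, and Cenpq and Bod1 had the largest differences.
Kif15, chr9:122950941-122951080, plus strand: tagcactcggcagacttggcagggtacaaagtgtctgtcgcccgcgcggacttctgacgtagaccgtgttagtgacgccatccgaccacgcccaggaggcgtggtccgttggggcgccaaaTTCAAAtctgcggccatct
Plk4, chr3:40799811-40799950, plus strand: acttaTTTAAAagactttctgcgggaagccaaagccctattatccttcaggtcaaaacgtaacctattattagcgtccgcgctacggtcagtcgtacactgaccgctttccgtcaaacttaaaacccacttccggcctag
Cenpn, chr8:116921600-116921739, plus strand: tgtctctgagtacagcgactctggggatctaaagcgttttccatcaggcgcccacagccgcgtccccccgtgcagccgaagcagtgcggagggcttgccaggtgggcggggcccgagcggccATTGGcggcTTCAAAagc
Cdk1, chr10:69352913-69353052, minus strand: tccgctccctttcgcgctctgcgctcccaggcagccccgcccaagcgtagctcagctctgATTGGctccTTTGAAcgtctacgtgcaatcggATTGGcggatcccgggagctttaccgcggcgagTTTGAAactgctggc
Top2a, chr11:99024190-99024329, minus strand: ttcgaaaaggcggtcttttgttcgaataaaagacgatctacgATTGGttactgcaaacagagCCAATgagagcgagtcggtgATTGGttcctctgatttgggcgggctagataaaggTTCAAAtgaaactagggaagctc
Cdc20, chr4:118437344-118437483, minus strand: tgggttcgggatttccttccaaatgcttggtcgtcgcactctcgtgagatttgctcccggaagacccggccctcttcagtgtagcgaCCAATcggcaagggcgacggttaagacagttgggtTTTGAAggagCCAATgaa
Cenpq, chr17:40934575-40934714, minus strand: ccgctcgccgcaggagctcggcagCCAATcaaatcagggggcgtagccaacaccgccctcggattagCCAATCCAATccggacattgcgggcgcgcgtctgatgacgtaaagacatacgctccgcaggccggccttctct
Bod1, chr11:31671863-31672002, minus strand: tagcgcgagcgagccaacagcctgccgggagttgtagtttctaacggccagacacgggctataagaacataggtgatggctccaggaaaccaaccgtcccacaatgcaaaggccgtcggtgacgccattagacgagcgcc

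The nearest CHR before the start began at base -15 in Cdk1, -18 in Cdc20, -19 in Kif15, -23 in Top2a and -9 in Cenpn, counted from the start. In Plk4 it began at -135. Cenpq held CCAAT only, at -116, -73 and -68, and the Bod1 window held neither element. No match says only that these letters are not in the window.

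The RefSeq promoter table (250 bases before to 50 after each start) held 45 of the 54 members, with 51 starts. A CHR in either form stood in the promoters of 35 of the 45 genes (77.8%), against 30.6% of all 27025 genes in the table and 28.2% of 17492 protein-coding genes. The TTTGAA form alone was in 31 of 45 (68.9%), against 20.2% of all genes. A CCAAT box was in 32 (71.1%), against 41.1%, and both elements were in 27 (60.0%), against 12.2%. The 98 genes of the further mitotic lists below lay between: 43.9% held a CHR, 56.1% a CCAAT box and 30.6% both. In the window of 200 bases before the start, without the 50 transcribed bases, a CHR was in 46.7% of the members. It was in 32.7% of those 98 genes and 22.5% of all genes. These are descriptions of sequence, with no test, and a match is not a shown binding site.

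The CHR matches of the members lay close to the start. Of the 51 member starts, 21 (41.2%) had a match beginning within the first 50 transcribed bases, against 3.37% of 32851 starts in the table, and 14 (27.5%) had one in the 50 bases before, against 5.22%. In the farthest 50 bases, the shares were 5.88% and 7.10%. CCAAT boxes lay further upstream: 37.3% of member starts had one from -100 to -51 and 41.2% from -50 to -1, against 12.5% and 9.03% of all starts. Some members have more than 1 start in the table, and those starts share bases.

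**Figure D1:**
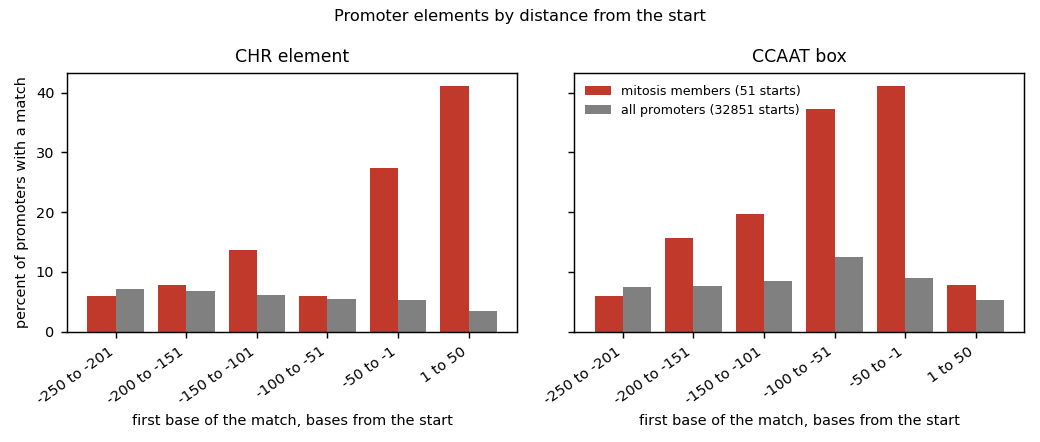
Percent of promoters with a CHR element (left) or a CCAAT box (right) that begins in each 50-base bin, counted from the start, on either strand. Red bars are the 51 starts of mitosis members and grey bars the 32851 starts of the table. The CHR bars of the members reach 41.2% just after the start, where 3.37% of all starts have a match.

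All role groups had members with a CHR: 7 of 13 kinetochore and centromere genes, 5 of 7 checkpoint and passenger genes, 7 of 7 entry and exit genes, 5 of 7 motor and spindle genes, 6 of 6 cytokinesis genes and 5 of 5 chromosome structure genes with a promoter in the table. Measured members with a CHR had a median log2 difference between the FGF21 and control samples of 0.23 (33 genes, from -0.01 to 0.40), and those without of 0.24 (10 genes, from 0.15 to 0.59). The medians were 0.20 with a CCAAT box (30 genes) and 0.29 without (13 genes). The ranges overlap, and these differences between promoter classes were not tested.

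Mitosis genes had higher signals in the FGF21 samples than in the controls, each by a small amount. Of the 52 measured members, 51 were higher, and the middle log2 difference was 0.22 (1.16-fold; quartiles 0.15 and 0.29). Over all 22180 genes the middle value was -0.01, and 47.8% were higher. None of the 52 passed limma's test at an adjusted p under 0.05 over all genes, and neither did any other gene (0 of 22180, or 0%). At an unadjusted p under 0.05, limma gave 34 members that were higher, or 65.4%, where 6.59% of all genes reached this, and 0 that were lower, where 5.11% of all genes did. Because the list was made with earlier results known, these shares describe it and do not test it. The smallest adjusted p among the members was 0.117, for Prc1 and Cep55. In RNA from whole cultures, more cells of a kind and more RNA per cell cannot be told apart.

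**Figure D2:**
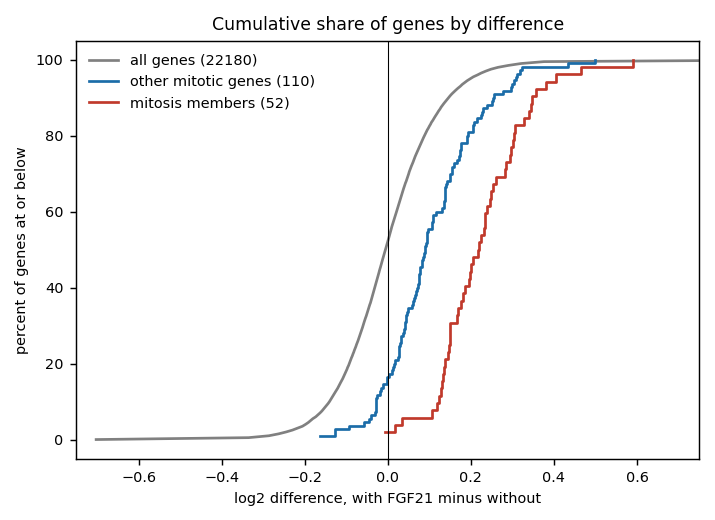
Cumulative percent of genes (vertical axis) by log2 difference, with FGF21 minus without (horizontal axis), for all 22180 genes (grey), the 110 other mitotic genes of the pathway lists (blue) and the 52 measured mitosis members (red). The middle of the red line is at 0.22 and that of the grey one at -0.01; the red line ends at 0.59, below the largest differences of all genes.

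The groups did not overlap for 35 of the 52 members, all 35 higher with FGF21, where 8.99% of all genes were apart in this direction and 8.14% in the other. The mean over the 52 members was 7.81, 7.88 and 7.86 in FGF21 replicates 1 to 3 and 7.54, 7.72 and 7.62 in the controls, so that every FGF21 array was above every control. FGF21 replicate 2 held the highest value of 24 members and replicate 3 that of 17. Control replicate 1 held the lowest value of 37 members, against 18.3% of all genes, while its median over all genes was 6.20 and those of the 6 arrays ran from 6.17 to 6.21. Without it the median difference was 0.18 and 24 members had an unadjusted p under 0.05, as many as without FGF21 replicate 2. Leaving out control replicate 2, the highest control, gave a median of 0.26 and 40 members. The share of all genes higher at that p also moved, from 4.24% to 7.56% over the fits with 1 array left out. Of the 34 members, 21 stayed under 0.05 in each of the 6 fits with 1 array left out.

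**Figure D3:**
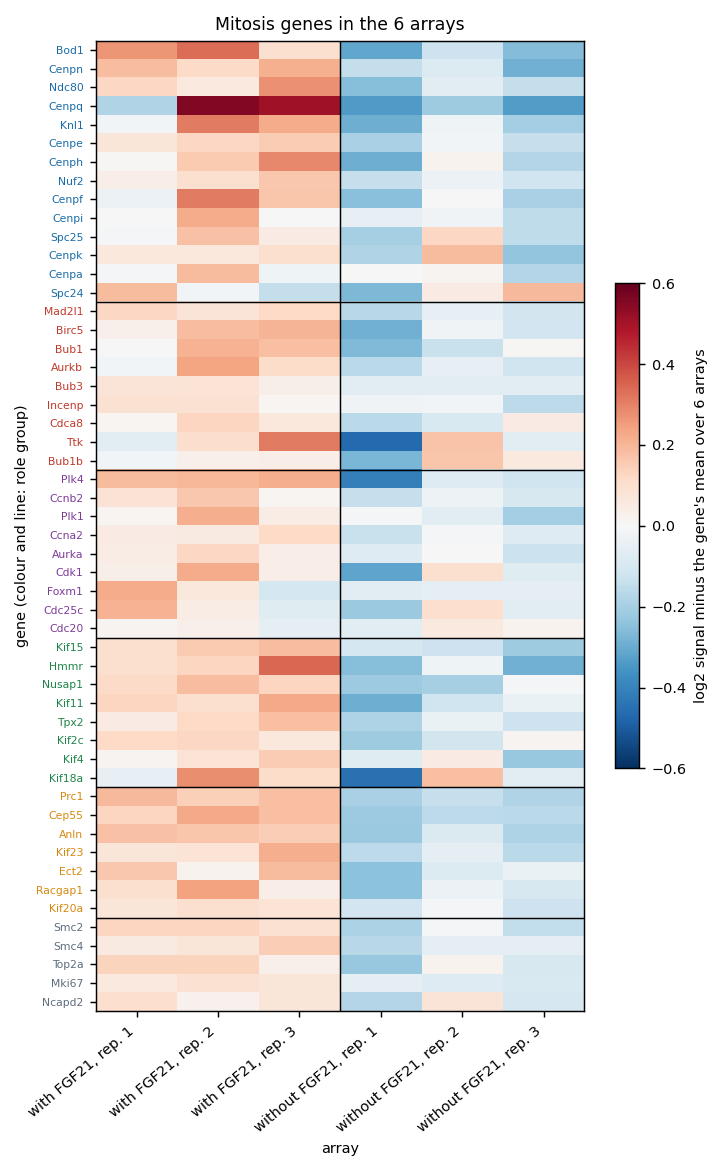
Log2 signal of the 52 measured mitosis members (rows, by role group and then by p) in the 6 arrays (columns), as the difference from each gene's mean over the arrays. Red is above and blue below that mean. The FGF21 columns are mostly red, and control replicate 1, the lowest array for 37 members, is the most even blue.

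Brightness goes with the direction on these arrays. The members were bright, with a median at the 78.6th percentile of all genes by level, and of 5 equal bins of genes by level the brightest held 22 of them and the next 23. The median difference of all genes was 0.05 in the brightest bin, 0.04 in the next and -0.03 in the dimmest. In the brightest bin 70.7% of genes were higher with FGF21, and 14.1% were higher with an unadjusted p under 0.05. The members' median of 0.22 was above every bin median, and the part of brightness in the result was not tested. When genes dimmer than the median were dropped, 3 members (Bod1, Prc1 and Cep55) passed limma's adjusted p of 0.05, all higher, where 0.415% of the 11090 genes kept did so.

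In the central spindle and cytokinesis group, all 7 measured members were higher with an unadjusted p under 0.05 and groups that did not overlap. Of all genes, 6.59% were higher at that p and 8.99% had groups apart in this direction. The call of Kif20a was lost with quantile normalization applied again (difference of 0.10) and without FGF21 replicate 2 or 3 or control replicate 1 or 3 (0.14 to 0.17), while the other 6 kept it in each fit with 1 array left out. The median log2 difference of all 7 was 0.25 (1.19-fold, from 0.17 to 0.36). Prc1 encodes the protein that bundles the antiparallel microtubules of the central spindle. It read 8.97, 8.92 and 8.96 with FGF21 and 8.58, 8.64 and 8.60 without. Its arrays within a group differed by far less than the groups did, and the log2 difference was 0.34 ± 0.06 (SE), or 1.27-fold with a 95% interval of 1.16 to 1.39 (limma adjusted p of 0.117). Cep55, which recruits the membrane-cutting machinery to the midbody, read 8.05, 8.15 and 8.10 with FGF21 and 7.71, 7.77 and 7.76 without. The difference was 0.36 ± 0.06, or 1.28-fold (1.16 to 1.41), with the same adjusted p. Anln, the actin-binding anillin of the contractile ring, read 9.56, 9.55 and 9.54 with FGF21 and 9.16, 9.30 and 9.20 without, a difference of 0.33 ± 0.06 (limma adjusted p of 0.141).

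The members of cytokinesis with smaller differences were still apart between groups. Kif23, the kinesin of centralspindlin, and Racgap1, its partner, differed by 0.25 ± 0.07 and 0.25 ± 0.08 (SE). Ect2, the exchange factor that switches on RhoA at the equator, differed by 0.25 ± 0.08. Kif20a, a kinesin of the central spindle, had the smallest difference of the group, at 0.17 ± 0.06: it read 8.55, 8.57 and 8.56 with FGF21 and 8.36, 8.47 and 8.35 without. The limma adjusted p-values of these 4 genes lay between 0.250 and 0.358.

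**Figure D4:**
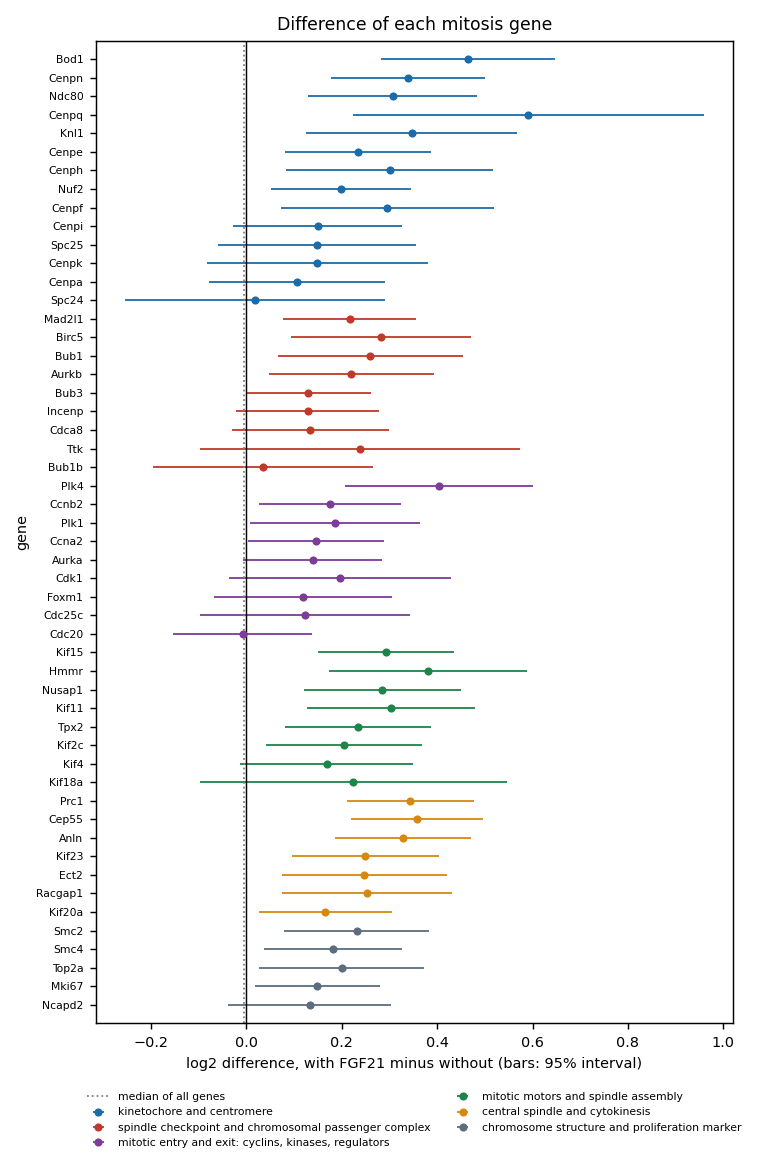
Log2 difference of each of the 52 measured mitosis members, with FGF21 minus without (points), with 95% intervals of limma (bars, not adjusted for the number of genes), coloured by role group and ordered by p within it. The dotted line is the median of all genes, at -0.01. All 7 intervals of the cytokinesis genes lie above 0, and Cdc20 is the 1 point below it.

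Kinetochore and centromere genes had the largest single differences and the widest range. All 14 were higher, 9 with an unadjusted p under 0.05 and 8 with groups apart, against 6.59% and 8.99% of all genes. Their median was 0.26 (from 0.02 to 0.59). Bod1 encodes a protein needed for chromosomes to attach to both spindle poles. Its brighter row (probe set 17547933) read 7.80, 7.87 and 7.63 with FGF21 and 7.22, 7.41 and 7.27 without, a difference of 0.46 ± 0.08 (SE), or 1.38-fold with a 95% interval of 1.22 to 1.57 (limma adjusted p of 0.119). The rows of Bod1 disagree in size: its dimmer row (probe set 17261439) differed by 0.13 ± 0.10, and their mean by 0.30.

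Cenpq, of the inner kinetochore network that stays on the centromere, had the largest difference of the members, at 0.59 ± 0.16 (SE), and the most uneven FGF21 group. It read 6.16, 6.90 and 6.85 with FGF21 and 6.00, 6.13 and 6.01 without. Replicate 1 with FGF21 lay barely above the controls. Without that array the difference was 0.83 and limma's adjusted p 0.0485, and without FGF21 replicate 2 it was 0.46 with an adjusted p of 0.598. The value thus rests on which FGF21 arrays are used.

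Cenpn, which binds the centromeric nucleosome, read 7.94, 7.87 and 7.97 with FGF21 and 7.62, 7.68 and 7.47 without, a difference of 0.34 ± 0.07 (SE, limma adjusted p of 0.177). The outer kinetochore genes, whose products hold the microtubule, had unequal estimates. Their 95% intervals overlap, and the contrasts among them were not tested. Ndc80 read 9.14, 9.08 and 9.30 against 8.77, 8.96 and 8.88 (0.31 ± 0.08), and Knl1, the scaffold for checkpoint proteins, differed by 0.35 ± 0.10. Nuf2, the direct partner of Ndc80, differed by 0.20 ± 0.07, with groups apart. The other 2 subunits of the same complex were not apart: Spc25 differed by 0.15 ± 0.09 and Spc24 by 0.02 ± 0.12 (95% interval of -0.25 to 0.29). Spc24 read 6.96, 6.75 and 6.63 with FGF21 and 6.50, 6.82 and 6.97 without, a spread within each group larger than the difference between them.

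Of the other centromere genes, Cenpe, a kinetochore motor, differed by 0.23 ± 0.07 (SE) with groups apart, and Cenpf and Cenph by 0.30 each, with an overlap. Cenpa, the histone H3 variant that marks the centromere, differed by 0.11 ± 0.08, Cenpi by 0.15 ± 0.08 and Cenpk by 0.15 ± 0.10. Cenpk was dim, at the 17.3rd percentile of all genes by level.

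Spindle checkpoint and chromosomal passenger genes were all higher (9 of 9), with a median of 0.22. Of these, 4 had an unadjusted p under 0.05 and 5 had groups apart, against 6.59% and 8.99% of all genes. Mad2l1 encodes MAD2, the protein that blocks the anaphase-promoting complex. It read 7.88, 7.83 and 7.87 with FGF21 and 7.58, 7.70 and 7.64 without, a difference of 0.22 ± 0.06 (SE, limma adjusted p of 0.261). Birc5, the survivin of the passenger complex, read 6.00, 6.16 and 6.18 with FGF21 and 5.68, 5.95 and 5.86 without (0.28 ± 0.08). Bub1, a checkpoint kinase, read 7.26, 7.47 and 7.44 against 6.99, 7.12 and 7.26, and differed by 0.26 ± 0.09. Its lowest FGF21 array lay just under its highest control.

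The passenger complex is a single unit of 4 proteins, and the differences of its genes ran from 0.13 to 0.28. Aurkb, its kinase, differed by 0.22 ± 0.08 (SE), while Incenp and Cdca8, its scaffold and targeting subunits, each differed by 0.13 ± 0.07. Bub1b, the gene of BUBR1, differed by 0.04 ± 0.10, with a 95% interval of -0.20 to 0.27, and its controls, at 7.11, 7.55 and 7.44, enclosed all 3 FGF21 values (7.36, 7.41 and 7.42). Without control replicate 1 its difference was -0.09. Ttk, the kinase MPS1, also depended on that array: it differed by 0.24 ± 0.15, and by 0.06 without control replicate 1. Bub3, an abundant checkpoint adaptor, differed by only 0.13 ± 0.06 but had groups apart.

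Among the cyclins, kinases and regulators of entry and exit the median difference was 0.15, the lowest of the role groups. Of 9 measured members 8 were higher, 4 with an unadjusted p under 0.05 and 5 with groups apart (all genes: 6.59% and 8.99%). Plk4, the kinase that starts the duplication of centrioles and so acts earlier than mitosis, was the largest: it read 7.66, 7.67 and 7.69 with FGF21 and 7.06, 7.39 and 7.35 without. The difference was 0.40 ± 0.09 (SE), or 1.32-fold with a 95% interval of 1.15 to 1.52 (limma adjusted p of 0.177). It was 0.30 without control replicate 1, its lowest array.

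The genes that drive entry had smaller differences than Plk4, a contrast that was not tested. Ccnb2, the cyclin B2 gene, read 8.91, 8.99 and 8.84 with FGF21 and 8.69, 8.79 and 8.73 without (0.18 ± 0.07, SE). Plk1, the polo-like kinase of spindle assembly, read 8.23, 8.44 and 8.27 against 8.21, 8.16 and 8.02 (0.19 ± 0.08), and Ccna2, the cyclin A2 gene, differed by 0.15 ± 0.06. Cdk1 itself differed by 0.20 ± 0.10, with controls from 7.31 to 7.73 that overlapped the FGF21 values of 7.66, 7.85 and 7.67. Aurka, the centrosomal Aurora kinase, differed by 0.14 ± 0.06 and Cdc25c, the phosphatase that frees Cdk1, by 0.12 ± 0.10.

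Cdc20, which activates the anaphase-promoting complex and so ends mitosis, had the smallest difference of the members. It read 7.44, 7.45 and 7.37 with FGF21 and 7.36, 7.48 and 7.45 without, a difference of -0.01 ± 0.07 (SE) with a 95% interval of -0.15 to 0.14. Foxm1, the transcription factor of late cell cycle genes, read 6.61, 6.45 and 6.28 with FGF21 and 6.32, 6.33 and 6.33 without. Its controls were nearly equal and its FGF21 arrays lay on both sides of them, with a difference of 0.12 ± 0.08 and a limma adjusted p of 0.608.

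Motors and spindle assembly genes were all higher, 8 of 8, with a median of 0.26 (from 0.17 to 0.38). Of these, 6 had an unadjusted p under 0.05 and 6 had groups apart, against 6.59% and 8.99% of all genes. Hmmr, a microtubule-binding spindle protein, read 7.90, 7.93 and 8.15 with FGF21 and 7.55, 7.78 and 7.51 without. The difference was 0.38 ± 0.09 (SE), or 1.30-fold (limma adjusted p of 0.208). Kif15, a motor that keeps the poles apart, read 6.89, 6.96 and 6.99 with FGF21 and 6.69, 6.67 and 6.59 without (0.29 ± 0.06). Nusap1, which bundles spindle microtubules, read 7.90, 7.96 and 7.91 against 7.56, 7.58 and 7.77 (0.28 ± 0.07).

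Among the remaining spindle genes, Kif11, the motor that separates the poles, differed by 0.30 ± 0.08 (SE), Tpx2, which activates Aurora A on the spindle, by 0.23 ± 0.07 and Kif2c, which takes microtubules apart at centromeres, by 0.20 ± 0.07, all 3 with groups apart. Kif4, a chromosome-bound motor, differed by 0.17 ± 0.08 with an overlap. Kif18a, which dampens chromosome movements, read 6.08, 6.40 and 6.24 with FGF21 and 5.68, 6.31 and 6.06 without, a wide spread. Its difference was 0.22 ± 0.14, and 0.06 without control replicate 1.

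All 5 measured chromosome structure genes were higher, by a median of 0.18. An unadjusted p under 0.05 was found for 4 and groups apart for 4, against 6.59% and 8.99% of all genes. Mki67, the gene of the Ki-67 antigen that marks cycling cells, was the brightest of the 52 members (97.1st percentile by level). It read 10.04, 10.07 and 10.05 with FGF21 and 9.92, 9.90 and 9.89 without. The replicates were very close, and the difference was small, at 0.15 ± 0.06 (SE), or 1.11-fold with a 95% interval of 1.01 to 1.21 (limma adjusted p of 0.375). Top2a, the topoisomerase that untangles sister chromatids, read 9.13, 9.13 and 9.03 against 8.77, 9.02 and 8.90 (0.20 ± 0.08). Of the condensin genes, Smc2 read 8.15, 8.15 and 8.11 against 7.83, 8.02 and 7.87 (0.23 ± 0.07) and Smc4 9.50, 9.52 and 9.59 against 9.28, 9.39 and 9.39 (0.18 ± 0.06). Ncapd2, a non-SMC subunit of condensin I, differed by 0.13 ± 0.08 with an overlap.

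Ordered by median, the role groups ran from kinetochore and centromere (0.26), motors and spindle (0.26) and cytokinesis (0.25) to checkpoint and passenger genes (0.22), chromosome structure (0.18) and entry and exit (0.15). Differences between role groups were not tested. The mean of the cytokinesis genes was 8.65, 8.66 and 8.67 with FGF21 and 8.32, 8.44 and 8.38 without. That of the entry and exit genes was 7.72, 7.75 and 7.65 against 7.47, 7.63 and 7.54. In each of the 6 role groups every FGF21 array had a higher mean than every control, and control replicate 1 had the lowest mean.

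**Figure D5:**
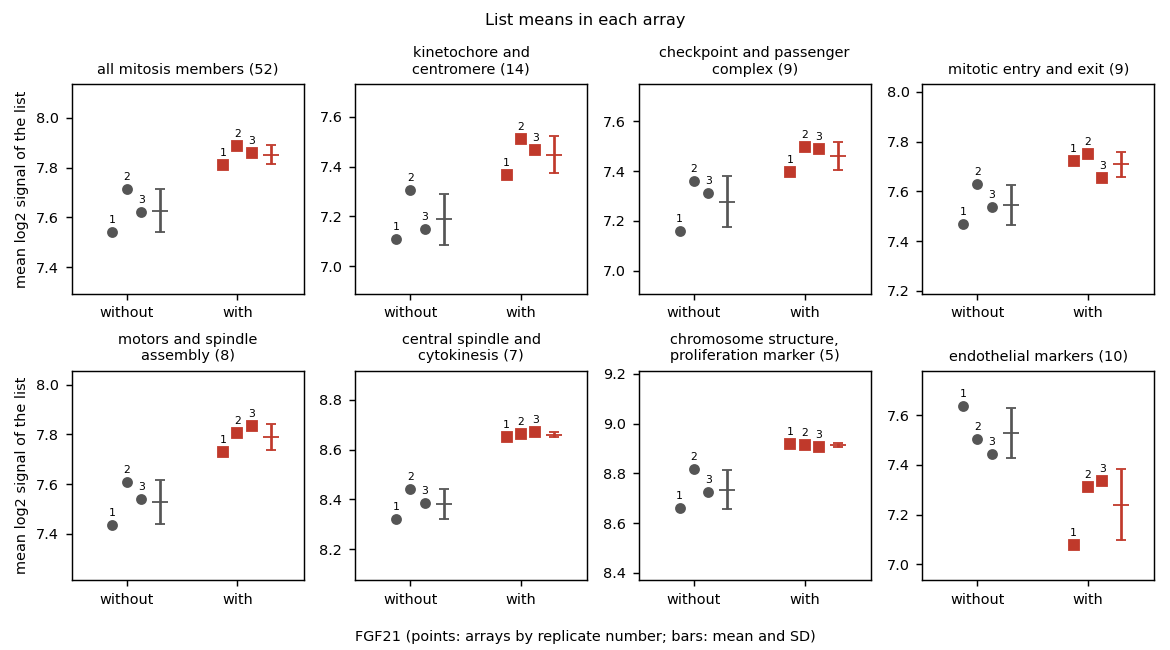
Mean log2 signal over the measured genes of each list (number in brackets) in each array, for all mitosis members, the 6 role groups and the endothelial markers. Points carry the replicate number, grey without and red with FGF21, and bars give the mean and SD (n = 3); every panel spans the same height. FGF21 arrays lie above the controls in each mitosis panel and below them for the endothelial markers.

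Genes of 5 further mitotic lists, none of them members, had smaller differences. Of 110 measured genes 92 were higher, with a median of 0.09, 24 were higher with an unadjusted p under 0.05 (21.8%) and 0 lower. By list, those at that p were 11 of 25 further spindle and cytokinesis genes (44.0%), 5 of 24 further kinetochore and centromere genes (20.8%), 3 of 18 genes of the DREAM complex, its relatives and the E2F factors (16.7%), 4 of 29 further mitotic kinases and genes of the anaphase-promoting complex (13.8%) and 1 of 14 cohesin and condensin genes (7.14%). The same call was made for 6.59% of all genes and 14.1% of the brightest bin. The cohesin share thus lies near that of all genes, and the kinase and DREAM shares near that of the brightest bin. The kinase and DREAM lists were less bright than that bin, with median levels at the 76.9th and 64.3rd percentiles. Higher genes numbered 25 of 29 in the kinase list, 13 of 18 in the DREAM list and 11 of 14 in the cohesin list. Their median differences were 0.11, 0.06 and 0.08, against 0.05 in the brightest bin and 0.04 in the next. The counts were unstable: the spindle and cytokinesis count was 5 without control replicate 1, 6 without FGF21 replicate 3, 7 without control replicate 3 and 6 with an ordinary statistic. The kinetochore count was 3 without FGF21 replicate 2 or 3 and 9 with median centring, which gave 11 for the kinases. Shcbp1, a midbody protein gene, read 7.16, 7.34 and 7.52 with FGF21 and 6.63, 6.95 and 6.96 without, a difference of 0.50 ± 0.11 (SE). Cenpc1, which links the centromeric nucleosome to the kinetochore, read 7.17, 7.45 and 7.42 against 6.77, 6.98 and 6.99 (0.43 ± 0.09, limma adjusted p of 0.177). Both had groups apart.

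Of the further genes that the naming rule took from those lists, Mastl, the Greatwall kinase, differed by 0.32 ± 0.08 (SE) and Wee1, the kinase that restrains Cdk1, by 0.32 ± 0.08. Arhgap11a, a RhoA regulator, differed by 0.30 ± 0.07, Sgo1, the protector of centromeric cohesion, by 0.25 ± 0.07 and Esco2, which acetylates cohesin, by 0.28 ± 0.09. Pds5a, a cohesin regulator, differed by 0.14 ± 0.07. Among the regulators, Rbl1, the p107 pocket protein of DREAM, differed by 0.30 ± 0.08 and Lin9, a MuvB subunit, by 0.20 ± 0.07. The smallest limma adjusted p over these lists was 0.177.

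Markers of the cells in culture were compared beside these values. Cardiomyocyte markers were bright (median at the 99.3rd percentile by level), as were fibroblast markers (97.9th), so the culture held both kinds of RNA. Of 12 cardiomyocyte markers 5 were higher and 7 lower with FGF21 (median -0.02), and of 10 fibroblast markers 5 were higher and 5 lower (median 0.00), with 0 past an unadjusted p of 0.05 in either list. Endothelial markers were lower: 9 of 10, with a median of -0.31 and 7 at an unadjusted p under 0.05, against 5.11% of all genes. Their mean ran from 7.08 to 7.34 with FGF21 and from 7.44 to 7.64 without, and FGF21 replicate 1 was the lowest array. Of 7 epicardial and mesothelial markers 5 were higher (median 0.09, 3 at an unadjusted p under 0.05, against 6.59% of all genes). The means ran from 7.80 to 7.90 and from 7.70 to 7.80. Of 8 leukocyte markers 1 was higher and 1 lower at that p, and of 8 smooth muscle and pericyte markers 1 was higher and 2 lower. Of 3 measured Schwann cell markers 1 was lower at that p (median -0.15), as was the 1 measured red cell marker, Epb42 (-0.21). A single call in a list this short cannot be told from the shares of all genes. The part of these shifts in the mitosis result was not tested, and which cells of the culture carried the mitotic RNA was not measured.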

How the data were processed

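Affymetrix Mouse Gene ST arrays measured total RNA of 6 samples, 3 with and 3 without FGF21. Each deposited value is a log2 signal that the authors computed with RMA (robust multi-array average: background correction, quantile normalization and summary of probes), using R 3.2.2 and affy, per the submitters' processing notes. RMA can hide a shift shared by all genes and compresses differences of dim genes. A chip definition is not given in the sources used here, nor is a genome build. The number of arrays limits the precision. 0 pairs of arrays were identical.

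Of 41345 rows, 23521 had 1 symbol in the platform annotation, 1814 had several, and 16010 were outside the naming table. For the 1082 genes with several rows the row of highest mean was used, leaving 22180 genes. The difference, with FGF21 minus without, was fitted over all of these with limma 3.58.1 in R 4.3.3 (lmFit, eBayes, no covariate, two-sided), with Benjamini-Hochberg adjustment over all genes and a threshold of 0.05. Level percentiles and the 5 level bins use the mean over all arrays. The fit was tested on simulated data with independent noise and added changes larger than nearly all differences of the members. That run does not show how well differences as small as theirs are recovered. No array was left out or imputed.

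Genes named singly were, in each role group, the 3 of smallest p and the 1 of largest, with Mki67, Foxm1, Top2a, Cenpq and Ccnb1 (not measured), and the 2 of smallest p in each further list; other members are added for completeness, after their values were seen. Members and lists were chosen with earlier results of these data known. Alternatives were a replicate block, each array left out, the mean of a gene's rows, dim genes left out, quantile normalization applied again, median centring, a trend and robust prior, array weights, an ordinary statistic, a threshold of 0.1 and a shorter promoter window. Promoters came from RefSeq (GRCm38.p6), matched by symbol.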

Additional observations from a re-analysis of the deposited data

How the results depend on the processing

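All 52 members were fitted in each setting except the dropping of dim genes, which kept 49. The members' median difference ran from 0.169 (quantile normalization applied again) to 0.254 (median centring), and from 0.182 to 0.260 with 1 array left out; the count higher at an unadjusted p under 0.05 ran from 25 to 39 and from 24 to 40.

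Members past limma's adjusted p of 0.05 numbered 0, but 3 when the dimmer genes, below the median level, were dropped: Bod1 (0.46, adjusted p of 0.0453), Prc1 (0.34) and Cep55 (0.36), both at 0.0471. There 0.415% of 11090 genes were called higher. With 1 array left out it ran from 0 to 1 (Cenpq, 0.83). Over all genes the count of 0 was 58 with dim genes left out, 16 with a trend and robust prior, 12 with median centring, 5 with quantile normalization applied again, 2 with the mean of rows or array weights, 28 at an adjusted p under 0.1, and from 0 to 2 with 1 array left out. The share of all genes higher at an unadjusted p under 0.05, 6.59%, was 11.5% with dim genes left out, 10.5% with median centring and from 4.24% to 7.56% with 1 array left out.

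With quantile normalization applied again the medians were 0.199 for cytokinesis and 0.0170 for cohesin and condensin. With median centring they were 0.112 for cohesin and condensin and 0.0947 for the DREAM and E2F list. With 1 array left out, the entry and exit median ran from 0.117 to 0.202 and the cohesin and condensin median from 0.0308 to 0.0978. Members apart in the lower direction ran from 0 to 1, the 1 being without control replicate 1.

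Counts at an unadjusted p under 0.05 moved for the further lists. The kinetochore count was 8 with quantile normalization applied again, 9 with median centring, 3 with an ordinary statistic and from 3 to 7 with 1 array left out (3 without FGF21 replicate 2 or 3). The spindle and cytokinesis count was 6 with an ordinary statistic and from 5 to 11 with 1 array left out (5 without control replicate 1, 6 without FGF21 replicate 3 and 7 without the third control). The kinase count was 11 with median centring. The cohesin and condensin count was 0 with dim genes left out, 2 with median centring and from 1 to 2 with 1 array left out.

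Signs turned only for members near 0: Bub1b was -0.00389 with quantile normalization applied again and -0.0935 without control replicate 1. With 1 array left out it ran from -0.0935 to 0.126. Cdc20 was 0.0286 with median centring and ran from -0.0437 (control replicate 1 left out) to 0.0206 (control replicate 2 left out). Spc24 was -0.0429 with array weights and ran from -0.113 (control replicate 1 left out) to 0.120 (control replicate 3 left out). In the 200 bases before the start, the members with a CHR fell from 77.8% to 46.7%, and with its TTTGAA form from 68.9% to 35.6%, in a window that drops the 50 bases at each end.

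The correlations between arrays of the same replicate number, as deviations from group means, were 0.103, 0.158 and 0.00653. Between arrays of different numbers they ran from -0.160 to 0.0416. Whether the replicate numbers pair the arrays was not tested, and the main fit took them as unpaired. With a replicate block 36 members were higher at an unadjusted p under 0.05, in place of 34, and 0 passed the adjusted p.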
